A study of Rattus norvegicus with 13 samples.

Results

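The AMPA and NMDA receptor subunits carried on the array were the 4 AMPA receptor genes Gria1, Gria2, Gria3 and Gria4 and the 6 NMDA receptor genes Grin1, Grin2a, Grin2b, Grin2c, Grin2d and Grin3a. Their probes were taken by the gene name in the scanner files, which gave 15 probes for these 10 genes (7 AMPA and 8 NMDA probes), of 20005 probes and 17245 genes tested. All 15 passed the filter on dim signal. Of these, 14 were well above background on all 13 arrays and 1 Grin3a probe on 12, and none was saturated.

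Male Sprague–Dawley rats were killed 1 month after surgery for RNA of the frontal cortex, and each sample was hybridised to its own 1-colour Agilent array. In the rotational model, 3 rats received head acceleration rotational trauma and 3 were its shams. In the percussion model, 3 rats received lateral fluid percussion trauma, a pressure pulse applied to the exposed dura, and 4 were its shams. Shams of both models had the anaesthesia and the surgery but no trauma. The labels give no age and do not say which side of the cortex was taken. They name the replicates only as separate samples, so the p-values measure the spread between these samples. Slide, column and row were read from the array names and are not given by the labels. Read so, the arrays of a model shared a slide with none of the other model. The effects of model and slide then cannot be told apart. Within a slide the trauma and sham arrays lay in different columns, so column and group cannot be told apart either. In bulk tissue, fewer cells of a type and less RNA per cell cannot be told apart.

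AMPA and NMDA receptors are the ionotropic glutamate receptors that carry most fast excitatory transmission in the cortex. AMPA receptors are tetramers of GluA subunits. Those that contain edited GluA2 (Gria2) let little calcium through, while those built of the other subunits alone are calcium-permeable. NMDA receptors need the glycine-binding subunit GluN1 (Grin1), together with GluN2 subunits that bind glutamate or GluN3 subunits that bind glycine. They open when the transmitter binds and depolarisation lifts the magnesium block. GluN2B (Grin2b) dominates early in life and GluN2A (Grin2a) is added as the cortex matures. GluN2C and GluN2D make receptors with a weaker magnesium block, and GluN3A (Grin3a) lowers calcium entry.

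The measurements rest on 60-base probes, and 7 of the 15 are shown because the differences below turn on them or because a pair is alike. In the first pair, Gria2 and Gria3, the capitals mark the 36 identical bases of the 50 that align without gaps (72.0%). The next most alike of the 105 probe pairs shared 27 bases. In the others the capitals mark the longest run of G and C.
Gria2 A_64_P139295: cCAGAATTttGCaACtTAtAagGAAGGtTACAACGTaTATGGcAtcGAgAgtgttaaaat
Gria3 A_44_P449764: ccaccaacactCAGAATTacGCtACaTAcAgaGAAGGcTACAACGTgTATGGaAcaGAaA
Gria1 A_43_P15761: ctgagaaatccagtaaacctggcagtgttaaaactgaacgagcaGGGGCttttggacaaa
Grin1 A_43_P11774: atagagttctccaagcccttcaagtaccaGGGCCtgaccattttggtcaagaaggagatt
Grin1 A_64_P085896: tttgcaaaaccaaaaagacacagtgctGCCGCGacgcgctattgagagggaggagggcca
Grin2b A_44_P308696: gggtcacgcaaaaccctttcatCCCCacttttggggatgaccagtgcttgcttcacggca
Grin2d A_64_P118192: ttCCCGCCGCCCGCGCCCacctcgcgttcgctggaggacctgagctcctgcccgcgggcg

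The array files place these probes on the rat build rn4. The Gria2 probe lies at chr2:172269214-172269273 and the Gria3 probe at chrX:3459714-3459773, both on the minus strand, and the files give no position for the Gria1 probe. Both Grin1 probes lie on the minus strand, A_64_P085896 at chr3:3454949-3455008 and A_43_P11774 at chr3:3460217-3460350. The latter interval spans 134 bases, more than the 60 of the probe. The Grin2b probe lies at chr4:172722609-172722668 and the Grin2d probe at chr1:96309508-96309567, both on the minus strand. Exon and UTR annotation of rn4 was not used here. The Grin2d probe stands out by its composition, with 78.3% G and C, while the other 14 have 35 to 55%.

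Signals are given as scaled log2 signals, that is, the log2 processed signal of a probe minus the 75th percentile of all probes on the same array. Values below 0 are therefore dimmer than that percentile. Levels are compared between groups within a probe, never between probes, whose brightness depends on their sequence.

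**Figure D1:**
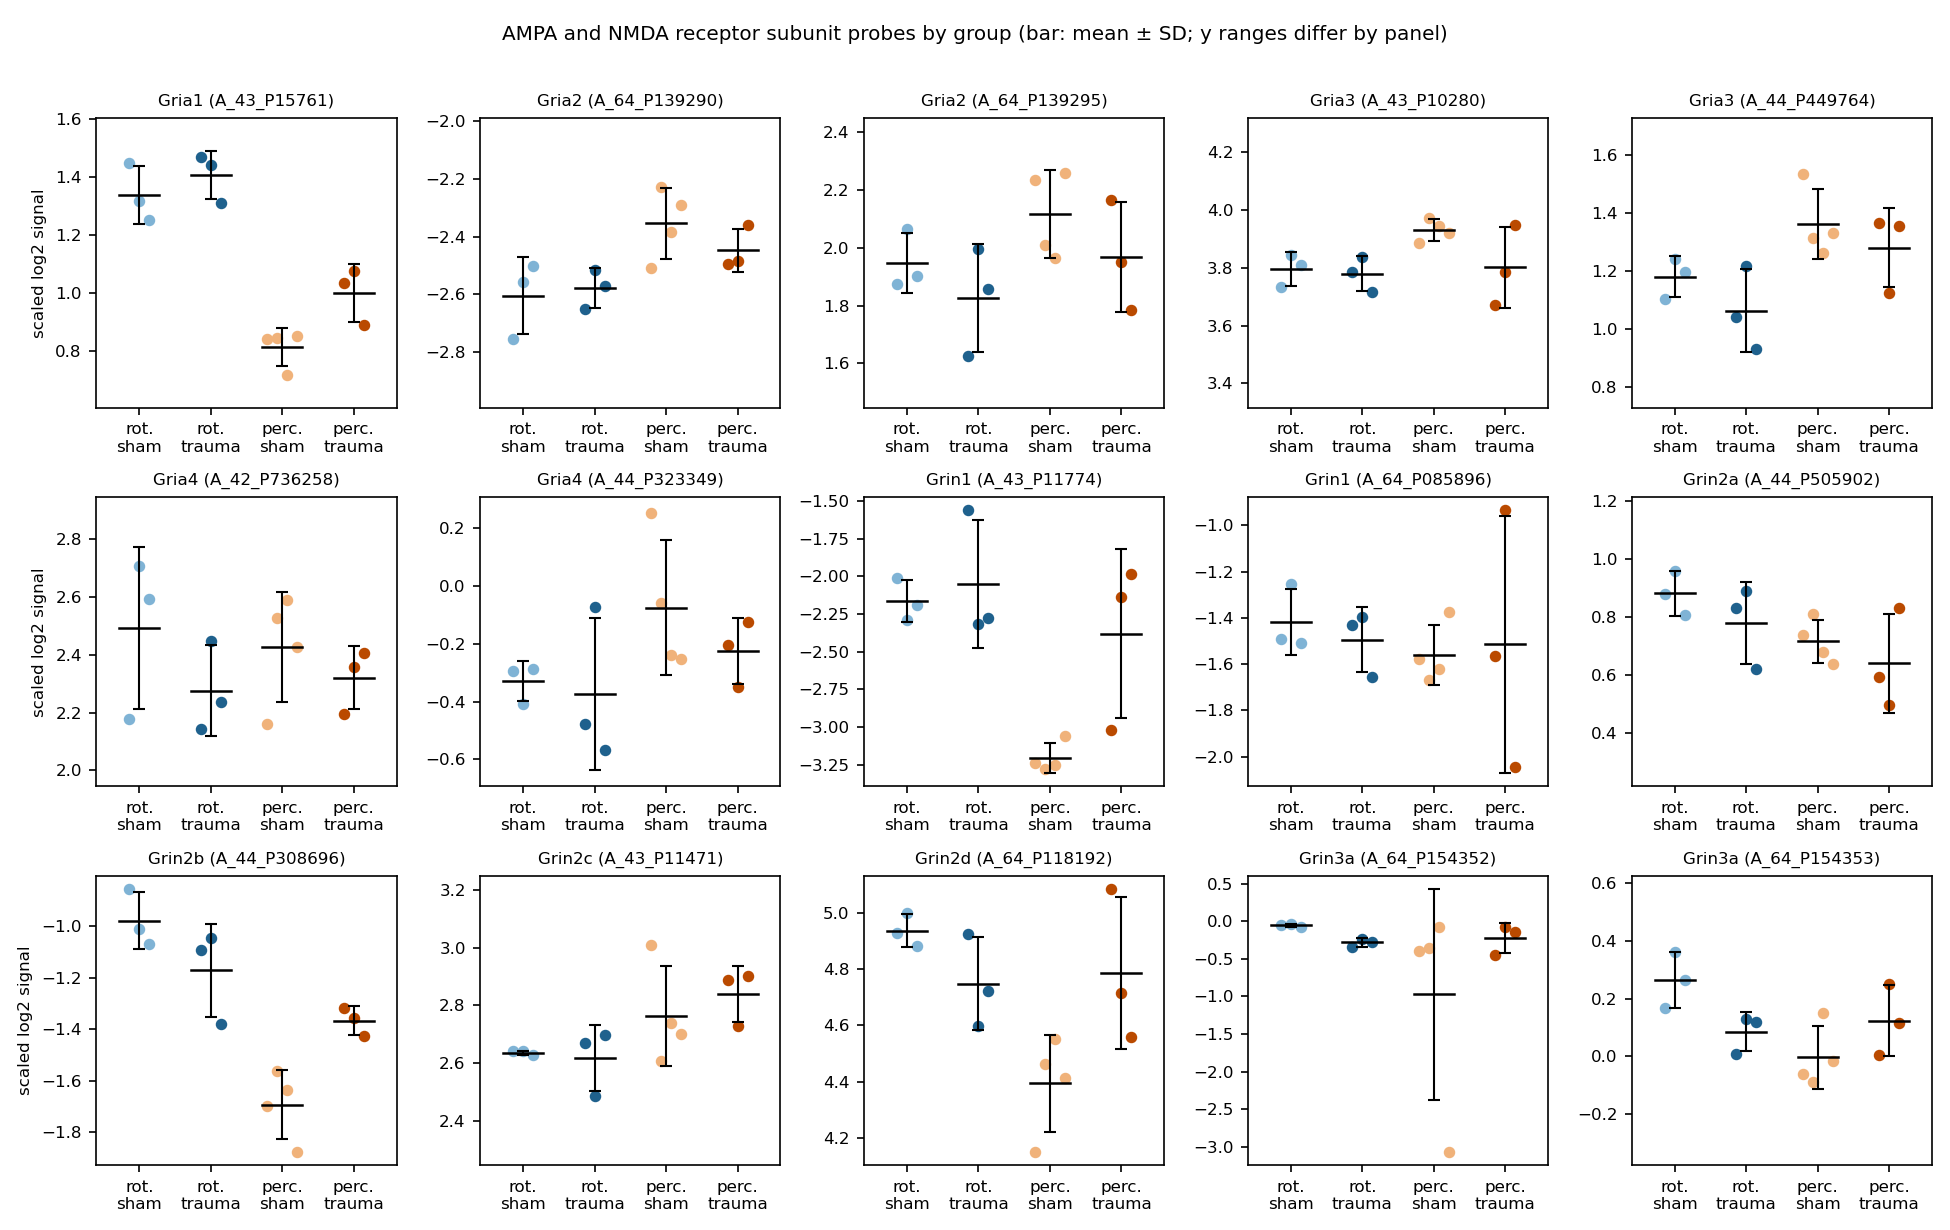
Scaled log2 signal (y axis, log2 units, a range of its own in each panel) of the 15 subunit probes in rotational sham, rotational trauma, percussion sham and percussion trauma; points are arrays, bars mean ± SD. Gria1 and Grin2b sit lower in both percussion groups than in rotational sham, and 1 percussion sham array of Grin3a A_64_P154352 lies at −3.07, far below the rest.

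No subunit differed between trauma and its own sham at an adjusted p under 0.05 in limma. After rotational trauma 0 of 15 probes passed (0.01% of all probes did), and 0 of 15 had an unadjusted p under 0.05 (6.52% of all probes). In the percussion model 0 of 15 passed (0% of all probes), and 4 of 15 had an unadjusted p under 0.05, all of them higher after trauma (7.02% of all probes were higher at that level). These 4 were Gria1, the Grin1 probe A_43_P11774, Grin2b and Grin2d. Between the 2 sham groups 5 of 15 probes passed, all lower in percussion sham (11.5% of all probes passed as lower and 10.7% as higher).

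After rotational trauma the subunit differences were small and mostly below 0. They ran from −0.23 to 0.11 with a median of −0.10, against −0.01 for all probes. Of the 15 probes 3 were higher and 12 lower, where 53.5% of all probes were lower. Under the other background corrections and scalings 2 to 4 were higher. Single arrays moved the split more: without rotational trauma sample 3 it was 6 higher and 9 lower (median −0.05), and without rotational sham sample 2 it was 5 and 10 (median −0.06). The 7 AMPA probes had a median of −0.04, which was 0.02 without rotational trauma sample 3 and −0.19 without sample 2. The 8 NMDA probes had one of −0.14, and −0.07 without sample 3. The smallest adjusted p was 0.811, for Grin3a A_64_P154353.

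In the percussion model the receptor classes lay on either side of 0. Of the AMPA probes 1 was higher and 6 lower (median −0.11). Of the NMDA probes 7 were higher and 1 lower (median 0.23). With dim spots left out, which lowers the value of 1 Grin3a probe described below, the NMDA median was 0.11, and without percussion sham sample 4, the array of that spot, it was 0.12. With 1 probe a gene the NMDA median was 0.10, with 5 of 6 probes higher. All probes split almost evenly, with 50.1% higher. The split of 8 higher and 7 lower over both classes became 7 and 8 with arrays centred within classes of G and C content and without percussion trauma sample 2, where 6 NMDA probes were higher and 2 lower. The other background corrections and scalings kept 8 and 7. The members ran from −0.15 to 0.83, and the smallest adjusted p was 0.29.

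**Figure D2:**
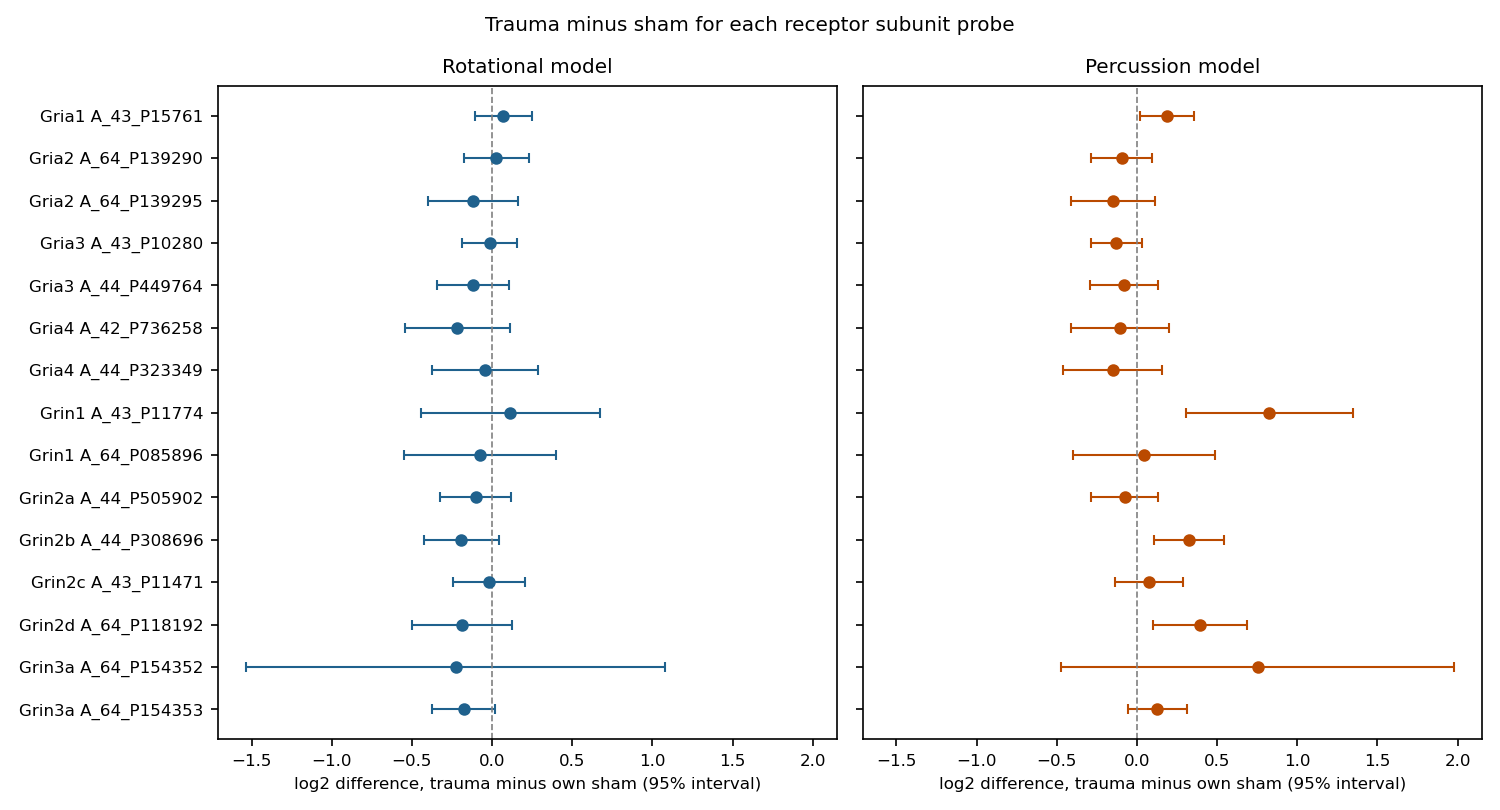
Log2 difference between trauma and its own sham (x axis) for each of the 15 subunit probes in the rotational model (left) and the percussion model (right), from limma, with the 95% confidence interval as the bar. In the rotational model every interval includes 0, and in the percussion model those of Gria1, Grin1 A_43_P11774, Grin2b and Grin2d lie above 0 before adjustment over all probes.

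Gria1 encodes GluA1, the AMPA subunit whose phosphorylation and delivery to the membrane accompany synaptic potentiation. Its probe, printed on 10 spots, read 1.45, 1.32 and 1.25 in rotational sham and 1.47, 1.44 and 1.31 in rotational trauma. In percussion sham it read 0.84, 0.84, 0.72 and 0.85, and in percussion trauma 1.04, 1.08 and 0.89. All 3 percussion trauma arrays lay above all 4 shams, while the rotational groups overlapped, and every rotational array lay above every percussion array. In the percussion model groups did not overlap in the higher direction for 4 of 15 subunit probes (5.32% of all probes). These were Gria1, Grin1 A_43_P11774, Grin2b and Grin2d. The percussion difference of Gria1 in limma was 0.19 (SE 0.08, adjusted p = 0.402) and the rotational one 0.07 (SE 0.08, adjusted p = 0.999). The difference between the 2 models' effects was −0.12 (95% interval −0.36 to 0.12).

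Gria2 encodes GluA2, the subunit whose edited form limits calcium entry, and neither of its probes separated trauma from sham. The probe A_64_P139295 read 1.87 to 2.07 in rotational sham, 1.63 to 1.99 in rotational trauma, 1.96 to 2.26 in percussion sham and 1.79 to 2.17 in percussion trauma. All 4 ranges overlapped. Its difference was −0.12 (95% interval −0.40 to 0.16) in the rotational and −0.15 (−0.41 to 0.11) in the percussion model. The other Gria2 probe, A_64_P139290, differed by 0.03 (−0.18 to 0.23) and −0.09 (−0.28 to 0.10). Its rotational value was below 0 with normexp background correction and in the authors' deposited values.

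Gria3 encodes GluA3, which in the cortex assembles mainly with GluA2. The probe A_44_P449764, the one alike to Gria2's, read 1.103 to 1.24 in rotational sham, 0.93 to 1.22 in rotational trauma, 1.26 to 1.54 in percussion sham and 1.12 to 1.37 in percussion trauma. Within each model the groups overlapped, with differences of −0.12 (95% interval −0.34 to 0.11) and −0.08 (−0.29 to 0.13). The probe A_43_P10280 differed by −0.02 (−0.19 to 0.15) and −0.13 (−0.29 to 0.03). With normexp its rotational value turned above 0. Its percussion sham arrays were close together, at 3.88 to 3.97, and the percussion trauma arrays spread from 3.67 to 3.95.

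Gria4 encodes GluA4, the subunit of fast AMPA receptors, prominent in parvalbumin interneurons. Its 2 probes name different RefSeq transcripts. A_42_P736258, on 10 spots, read 2.18 to 2.71 in rotational sham and 2.14 to 2.45 in rotational trauma, and 2.16 to 2.59 against 2.20 to 2.40 in the percussion model. All 3 trauma arrays lay below their sham mean in both models, but none of the groups separated. The differences were −0.22 (95% interval −0.55 to 0.11) and −0.11 (−0.41 to 0.20). A_44_P323349 differed by −0.04 (−0.37 to 0.29) and −0.15 (−0.46 to 0.16).

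Grin1 encodes GluN1, the subunit that every NMDA receptor requires, and its 2 probes gave different readings in the percussion model. A_43_P11774, on 1 spot, read −3.24, −3.28, −3.25 and −3.06 in percussion sham and −3.02, −2.14 and −1.99 in percussion trauma. Trauma sample 1 lay at the edge of the shams and the other trauma samples far above them. The difference was 0.83, or 1.77-fold (SE 0.24, adjusted p = 0.29). It was 0.63 without percussion trauma sample 3 and 1.146 without sample 1, with adjusted p between 0.0532 and 0.507 over all alternatives. The rotational groups, at −2.29 to −2.01 in sham and −2.32 to −1.56 in trauma, overlapped (difference 0.11, 95% interval −0.44 to 0.67).

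The other Grin1 probe, A_64_P085896, showed no such separation. It read −1.58, −1.67, −1.62 and −1.37 in percussion sham and −1.56, −0.93 and −2.05 in percussion trauma. The trauma animals spread to both sides of the shams. On each of these 3 arrays its 2 spots lay close together (−1.60 and −1.53, −0.92 and −0.95, −2.10 and −1.99), so the spread lay between arrays and not between spots. The difference was 0.05 (95% interval −0.40 to 0.49), and it was −0.24 without percussion trauma sample 2. The rotational difference was −0.08 (−0.55 to 0.40). The deviations of the 2 Grin1 probes from their group means had a Pearson r of 0.016 over the 13 arrays.

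Grin2a encodes GluN2A, the GluN2 subunit of the mature cortex. Its probe read 0.88, 0.96 and 0.81 in rotational sham and 0.83, 0.89 and 0.62 in rotational trauma, and 0.64 to 0.81 in percussion sham against 0.50 to 0.83 in percussion trauma. The groups overlapped in both models. The differences were −0.10 (95% interval −0.32 to 0.12) and −0.08 (−0.28 to 0.13).

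Grin2b encodes GluN2B, the subunit of juvenile and extrasynaptic receptors. It read −0.86, −1.01 and −1.07 in rotational sham and −1.09, −1.04 and −1.38 in rotational trauma. In percussion sham it read −1.70, −1.56, −1.63 and −1.88, and in percussion trauma −1.32, −1.36 and −1.43. The percussion groups did not overlap, trauma being the higher one, as was so for 5.32% of all probes. Rotational trauma overlapped its sham and lay below the sham mean on all 3 arrays. From the highest group to the lowest the order was rotational sham, rotational trauma, percussion trauma and percussion sham, where rotational trauma overlapped with the group on either side of it and percussion sham with none. The percussion difference was 0.33, or 1.25-fold (SE 0.10, adjusted p = 0.31), and the rotational one −0.19 (SE 0.11, adjusted p = 0.844). The models' effects differed by −0.52 (95% interval −0.84 to −0.19), which did not pass over all probes (adjusted p = 0.367).

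Grin2c encodes GluN2C, known best from the cerebellum and from glia. It read 2.63 to 2.64 in rotational sham and 2.49 to 2.70 in rotational trauma, and 2.61 to 3.01 against 2.73 to 2.90 in the percussion model. Neither pair separated. The differences were −0.02 (95% interval −0.24 to 0.21), which turned above 0 with normexp, and 0.08 (−0.14 to 0.29).

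Grin2d encodes GluN2D, found in the adult cortex mainly in interneurons. It read 4.93, 4.999 and 4.88 in rotational sham, 4.93, 4.60 and 4.72 in rotational trauma, 4.15, 4.46, 4.55 and 4.41 in percussion sham, and 5.09, 4.72 and 4.56 in percussion trauma. Percussion trauma lay above its sham by a narrow margin, 4.56 against 4.55 at the nearest arrays, and the rotational groups overlapped. The percussion difference was 0.39, or 1.31-fold (SE 0.13, adjusted p = 0.338), the rotational one −0.19 (SE 0.14, adjusted p = 0.952), and the models' effects differed by −0.58 (95% interval −1.01 to −0.15). Probes rich in G and C had medians of the same sign: the 202 tested probes above 65% had a median of 0.15 in the percussion and −0.11 in the rotational model. With each array centred within classes of G and C content, an alternative chosen after seeing the data, the percussion difference was 0.29 (adjusted p = 0.564) and the difference between models −0.32.

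Grin3a encodes GluN3A, a subunit most abundant during early postnatal development. It was the gene of the 2 of 15 probes whose rotational groups did not overlap. A_64_P154353 read 0.17, 0.36 and 0.26 in rotational sham and 0.01, 0.13 and 0.12 in rotational trauma. A_64_P154352 read −0.05, −0.04 and −0.08 in sham and −0.34, −0.23 and −0.27 in trauma. With both probes all 3 trauma arrays lay below all 3 shams, as was so for 8.39% of all probes. The differences were −0.18 (SE 0.09, adjusted p = 0.811) and −0.23 (SE 0.60, adjusted p = 0.999). The starts of the 2 probes lie 91 bases apart in 1 transcript, so they are not independent readings.

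The large SE of Grin3a A_64_P154352 came from 1 spot. In percussion sham it read −0.39, −0.35, −0.08 and −3.07, and in percussion trauma −0.45, −0.07 and −0.14. On percussion sham array 4, one of its 2 spots had an intensity of 1462 and the other one of 36.2, which was not above background though not marked as an outlier. The neighbouring probe read −0.02 on that array. The percussion difference of 0.75 (SE 0.56) fell to 0.09 when dim spots were left out, an alternative added after seeing the data, and the rotational one stayed at −0.23. A_64_P154353 differed by 0.13 (95% interval −0.06 to 0.31) in the percussion model, and its groups overlapped.

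**Figure D3:**
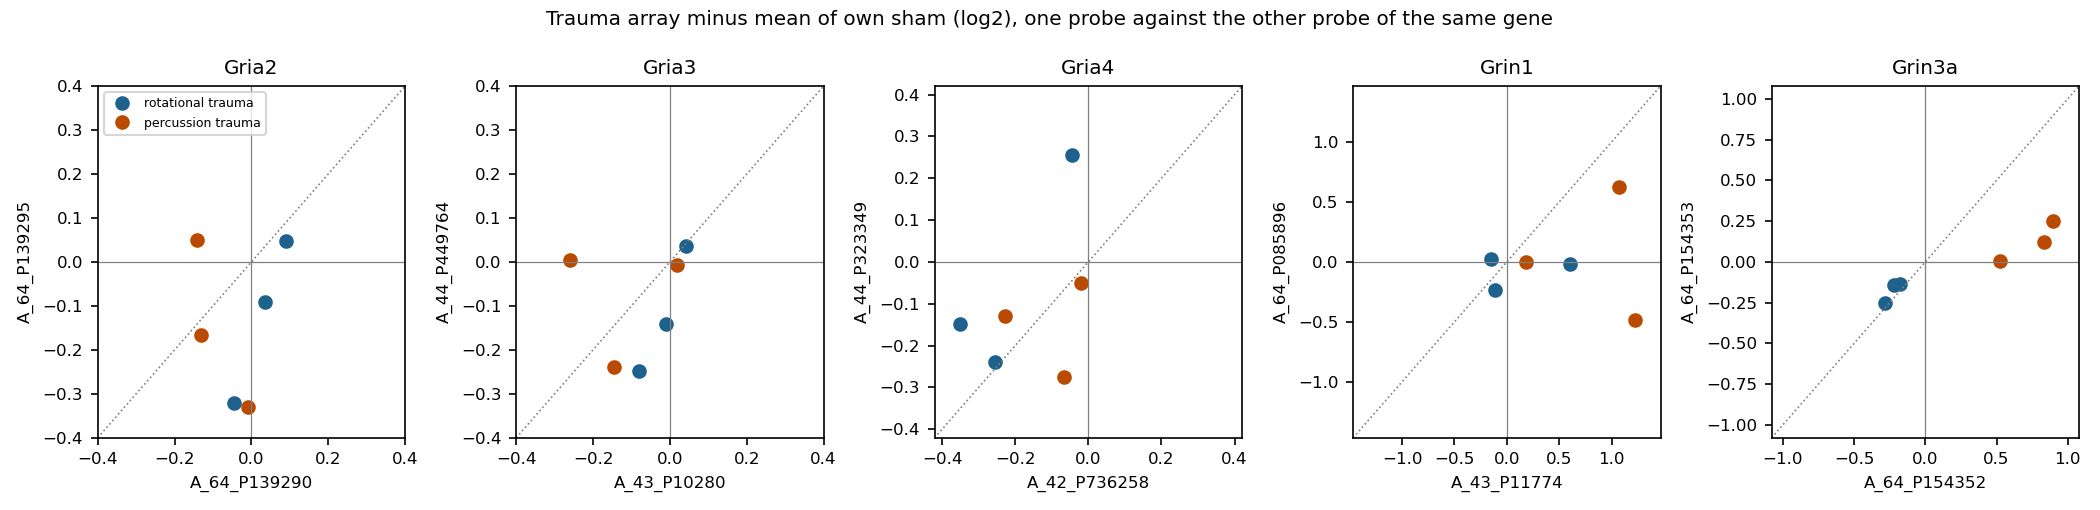
Trauma array minus the mean of its own sham (log2 units) for one probe (x axis) against the other probe (y axis) of the 5 genes with 2 probes; points are the 3 rotational and 3 percussion trauma arrays, the dotted line marks equal values. The Grin3a percussion points are shifted right by the 1 dim sham spot, and the Grin1 percussion points reach 1.22 on one probe and lie between −0.48 and 0.63 on the other.

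The mean of both trauma effects called 0 of 15 probes in limma (0% of all probes). At an unadjusted p under 0.05 it held 2, both higher (5.24% of all probes): Gria1, at 0.13 (SE 0.06, adjusted p = 0.566), and Grin1 A_43_P11774, at 0.47 (SE 0.17, adjusted p = 0.465). For Gria1 the models gave 0.07 and 0.19, and for the Grin1 probe 0.11 and 0.83. The mean of both effects for the other Grin1 probe, A_64_P085896, was −0.02 (SE 0.15).

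The difference between the models' effects also called 0 of 15 (0% of all probes). At an unadjusted p under 0.05 it held 3, all lower in the rotational model (5.3% of all probes): Grin2b, Grin2d and Grin3a A_64_P154353, the last with −0.30 (95% interval −0.58 to −0.03). The 8 NMDA probes had values below 0 (median −0.41), where 51.5% of all probes did. That of Grin2a, −0.03, was above 0 under 4 alternatives (array weights, and without rotational sham sample 2, rotational trauma sample 3 or percussion trauma sample 3), and that of Grin1 A_64_P085896, −0.12, was 0.17 without percussion trauma sample 2. The NMDA median was −0.31 with dim spots left out, −0.29 without percussion sham sample 4 and −0.21 with 1 probe a gene. Of the 7 AMPA probes 4 were above and 3 below 0 (median 0.03), and the median was −0.02 with quantile normalization and −0.04 in the authors' deposited values. The difference between the models' effects contains percussion sham minus rotational sham with the same sign. In that sham comparison 7 of the 8 NMDA probes were lower (median −0.41). Grin2b differed there by −0.71, Grin2d by −0.54 and Grin3a A_64_P154353 by −0.27. Mean levels in rotational and percussion trauma were −1.17 and −1.37 for Grin2b, 4.75 and 4.79 for Grin2d, and 0.09 and 0.12 for that Grin3a probe.

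The balance between subunits was followed within each array as the log2 ratio of 2 probes. Its level reflects the probes, so only its differences between arrays are read. Grin2a over Grin2b was 2.44, 2.37, 2.31 and 2.51 in percussion sham and 1.91, 1.86 and 2.26 in percussion trauma, so that all 3 trauma arrays lay below all 4 shams. The mean difference was −0.40. The Grin2b probe by itself separated in that model (0.33), while Grin2a differed by −0.08, so the ratio is not a separate reading. For the rotational arrays the ratio was 1.74, 1.97 and 1.88 in sham and 1.92, 1.93 and 2.00 in trauma, which overlapped, with a mean difference of 0.09. The ratio of Gria2 to the mean of Gria1, Gria3 and Gria4 overlapped in both models. It was −0.60 ± 0.05 (SD, n = 3) and −0.66 ± 0.15 (SD, n = 3) in rotational sham and trauma, and −0.27 ± 0.20 (SD, n = 4) and −0.41 ± 0.25 (SD, n = 3) in percussion sham and trauma. The ratio of Gria2 to Gria1 alone was not planned, and its Gria1 probe by itself separated in the percussion model. In that model this ratio also separated. It was 1.39, 1.16, 1.25 and 1.41 in sham and 1.13, 0.87 and 0.90 in trauma, with all 3 trauma arrays below all 4 shams and a mean difference of −0.34. In the rotational model it was 0.43 to 0.75 in sham and 0.16 to 0.55 in trauma, which overlapped (mean difference −0.19). No test was run on these ratios.

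**Figure D4:**
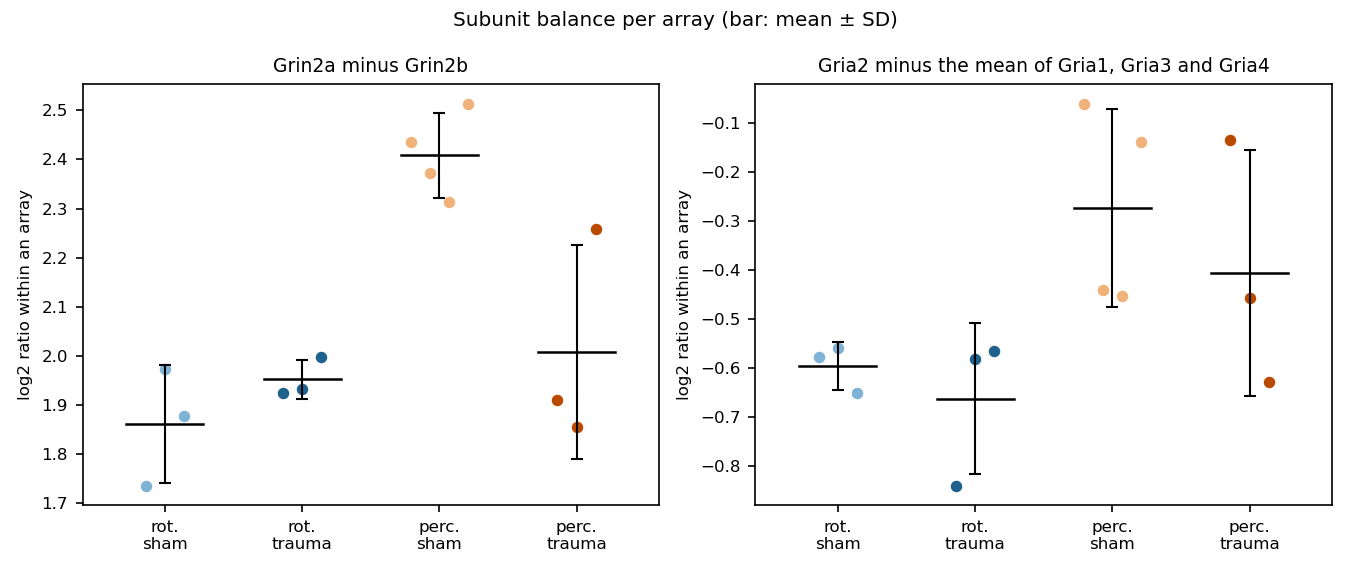
Log2 ratio within an array (y axis) of Grin2a to Grin2b (left) and of Gria2 to the mean of Gria1, Gria3 and Gria4 (right) in the 4 groups; points are arrays, bars mean ± SD. Percussion sham has the highest Grin2a to Grin2b ratio, at 2.31 to 2.51, and percussion trauma lies at 1.86 to 2.26.

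The 2 sham groups differed at several of the same subunits. Percussion sham was lower than rotational sham for Grin2b by −0.71 (SE 0.10, adjusted p = 0.00167), for Gria1 by −0.53 (SE 0.08, adjusted p = 0.00187) and for Grin1 A_43_P11774 by −1.04 (SE 0.24, adjusted p = 0.012). Grin2d, at −0.54 (SE 0.13, adjusted p = 0.0158), and Grin3a A_64_P154353, at −0.27 (SE 0.08, adjusted p = 0.0431), also passed. The other Grin1 probe, A_64_P085896, differed by −0.14 (adjusted p = 0.646 in limma) and did not pass, and its groups overlapped. No probe passed as higher. The nearest was Gria2 A_64_P139290 at 0.25 (adjusted p = 0.0579). Groups did not overlap for 9 of 15 probes, 3 higher and 6 lower (17.8% and 22.3% of all probes).

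Percussion trauma minus sham and percussion sham minus rotational sham share the 4 percussion sham arrays, so a low sham value enters both with opposite sign. The values side by side were 0.33 and −0.71 for Grin2b, 0.19 and −0.53 for Gria1, 0.83 and −1.04 for Grin1 A_43_P11774, and 0.39 and −0.54 for Grin2d. Without rotational sham sample 2 the number of probes called between the shams fell from 5 to 3, as Grin2d (adjusted p = 0.0561) and Grin3a (adjusted p = 0.15) were lost. The Grin3a call was lost in 8 of the 13 fits that left out 1 sample (adjusted p 0.051 to 0.15). Grin2d was also lost when arrays were centred within classes of G and C content (−0.26, adjusted p = 0.307), where the probes above 65% had a median of −0.27.

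Genes that act with these receptors were taken from 5 lists of 74 genes: auxiliary subunits and trafficking of AMPA receptors, partners of NMDA receptors, postsynaptic scaffolds and adhesion molecules, other glutamate receptors, and RNA editing enzymes. Of these, 66 were tested. None passed in either trauma comparison, and the smallest adjusted p was 0.41 in the rotational and 0.216 in the percussion model. After rotational trauma 12 were higher and 54 lower (median −0.08), where 53.5% of all probes were lower. In the percussion model 31 were higher and 35 lower (median −0.02), where 49.9% of all probes were lower. These splits were not followed over the alternatives. Between the shams 5 of the 66 passed as higher and 13 as lower in percussion sham (10.7% and 11.5% of all probes did).

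The smallest p in the percussion model was that of Arc, which encodes an activity-induced protein that promotes the internalisation of AMPA receptors. It read 4.39, 4.21, 3.73 and 3.78 in sham and 3.50, 2.60 and 2.68 in trauma. All 3 trauma arrays lay below the shams, as was so for 4.15% of all probes, with a difference of −1.098 (SE 0.23, adjusted p = 0.216). On the rotational arrays Arc lay at 0.82, 0.54 and 0.56 in sham and at 1.02, 1.39 and 1.06 in trauma, a difference of 0.52 (SE 0.24, adjusted p = 0.78). In that model trauma was the higher group, and the arrays did not overlap, as was so in that direction for 6.52% of all probes.

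Other partners of smallest p did not pass either. In the percussion model these were the scaffold gene Shank3 (−0.26), the kainate receptor gene Grik5 (−0.26) and Cacng2, which encodes the AMPA auxiliary subunit stargazin (−0.25). On the higher side they were the RNA editing enzyme gene Adar (0.53), the metabotropic receptor gene Grm8 (0.34), Grip1, which encodes a protein that binds GluA2 (0.16), and the scaffold gene Homer3 (0.37). Their adjusted p in limma lay between 0.245 and 0.528.

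Among the partners in the rotational model the largest difference was that of Homer3, which links metabotropic receptors to the postsynaptic density. It read −4.11, −4.53 and −4.21 in sham and −3.76, −2.99 and −3.31 in trauma, with all 3 trauma arrays above the shams (difference 0.93, SE 0.22, adjusted p = 0.41). Rotational groups did not overlap in the higher direction for 6.52% of all probes. The Homer3 probe is dim and was above background on 12 of the 13 arrays, with 3 of the 4 percussion shams among them. The others on the higher side were Nos1, the neuronal nitric oxide synthase gene (0.51), Arc, and Grip2 (0.16). On the lower side were the receptor genes Grm7 (−0.30) and Ephb2 (−0.34), the scaffold gene Homer1 (−0.25) and Ptpn5, which encodes the phosphatase STEP (−0.19). In the mean of both models the 8 named partners included Homer3 (0.65, adjusted p = 0.181), Nos1 (0.34), Grip1 (0.09) and Nlgn2 (0.06) as higher. Shank3 (−0.16), Grik5 (−0.15), Cacng2 (−0.16) and Grm6 (−0.26) were the lower ones.

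Across the 13 arrays, the genes closest to each of 5 subunits were found from deviations from the group means, with Pearson's r as a description. For Gria1 they were Lef1 (0.911), Hspa9 (0.905) and Pianp (0.893), and for Gria2 A_64_P139295 they included Wdr5 (0.971) and Zswim8 (0.967). For Grin1 A_64_P085896 they were Wasf1 (0.982), Olfm1 (0.959) and Dnm1 (0.957). For Grin2a they were Slc4a7 (0.946), Atxn7l3 (0.937) and Phip (0.921), and for Grin2b Gadd45b (0.916), Slc43a2 (0.911) and Ppfia1 (0.889). Each was picked as the highest over all tested probes, on arrays that share slides.

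Among the subunits themselves the deviations were mostly unrelated. Over the 105 pairs of probes the median r was −0.018, with 11 above 0.5 and 5 below −0.5. The highest were Gria3 A_44_P449764 with Gria4 A_44_P323349 (0.821) and Gria2 A_64_P139290 with Gria4 A_42_P736258 (0.81). The 5 pairs of probes of the same gene had r of 0.187 for Gria3, 0.173 for Grin3a, 0.016 for Grin1, −0.042 for Gria2 and −0.182 for Gria4.

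Cortical markers were detected on every array. All 6 cortical excitatory neuron markers on the array, and all 9 pan-neuronal ones, were above background on all 13 arrays. Of the 5 cerebellar granule neuron markers 3 were above background on all 13 arrays as well, Cbln3 on 2 and Gabra6 on 0. Markers of other cell types lay at different levels in the groups, with no single one passing the test in a trauma comparison. All 9 meningeal markers were higher after trauma in both models (median 1.09 and 1.27). Their mean level was −0.77 to −0.04 in rotational sham and 0.31 to 1.21 in rotational trauma, and −0.82 to 0.14 in percussion sham and 0.41 to 1.72 in percussion trauma. After rotational trauma 6 of 7 oligodendrocyte markers were higher (median 0.43), at a mean level of 1.89 to 2.58 in sham and 2.58 to 2.90 in trauma. All 8 striatal neuron markers were lower (median −0.56). The striatal level was −0.68 to 1.07 in rotational sham, −0.61 to −0.04 in rotational trauma, −0.76 to −0.67 in percussion sham and −0.98 to −0.67 in percussion trauma. All 8 were lower in percussion sham than in rotational sham as well (median −0.94). Of these 8, 4 passed as lower between the shams in limma (11.5% of all probes did). Of these markers 0 passed in either trauma comparison in limma, with 9 of 9 meningeal markers higher at an unadjusted p under 0.05 in the percussion model (7.02% of all probes) and 6 of 9 in the rotational one (3.3% of all probes). Pan-neuronal, interneuron and excitatory neuron markers moved by less than the meningeal ones. All 7 interneuron markers were lower after rotational trauma (median −0.06), at a mean level of 2.85 to 2.907 in sham and 2.763 to 2.846 in trauma. These ranges did not overlap by a narrow margin, 2.85 against 2.846. Among single probes 8.39% did not overlap in that direction. Of the 7 markers 0 had an unadjusted p under 0.05 in limma. In the percussion model 5 of 7 were lower (median −0.10), at 2.848 to 2.924 in sham and 2.721 to 2.891 in trauma. Of the 9 pan-neuronal markers 7 were lower in that model (median −0.07), at 2.711 to 2.858 in sham and 2.587 to 2.751 in trauma, and 3 were lower in the rotational one. At an unadjusted p under 0.05 in limma, 1 interneuron and 2 pan-neuronal markers were lower in the percussion model (4.34% of all probes). Among the 6 excitatory neuron markers 5 were lower in the rotational and 2 in the percussion model. The part of these markers in the subunit values was not tested.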

How the data were processed

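Per the file headers, the authors read the spots of the 13 one-colour arrays with Agilent Feature Extraction 10.5.1.1. Its processed signal, made with background method 7 and not scaled between arrays, is a deposited intensity. The authors also deposited a table of log2 values, whose 13 columns share a median of 8.15 and each of which correlated best with its own array. That table is an alternative here.

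Control spots (4259 of 62976) and outlier spots were left out. Spots of a probe were averaged as log2, and each array's 75th percentile was subtracted. Of 30367 probes, 20005 were above background, with every usable spot of a probe, on all arrays of at least 1 group. R 4.3.3 with limma 3.58.1 fitted a mean per group to all 13 arrays (9 residual and 2.33 prior degrees of freedom). The 5 contrasts were tested two-sided and adjusted by Benjamini-Hochberg over all probes at 0.05. Intervals are 95% and unadjusted. Members carry the name in the files. Other genes were renamed from RefSeq by accession (18006 probes), symbol (2654) or synonym (559), and 9148 kept the file's name. For a listed gene the tested probe of highest mean was used.

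Between 67.0% and 74.1% of spots were above background, and arrays of a group correlated at 0.988 to 0.997 across probes. Within each model the share of spots did not overlap between trauma and sham. It was 73.06 to 74.12% in rotational sham and 67.05 to 72.52% in rotational trauma. In the percussion model it was 67.57 to 69.4% in sham and 72.73 to 73.8% in trauma. The group in slide column 1 had the higher share in both models. The part of this share in the subunit differences was not tested. The number of arrays limits the precision.

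The members and lists were chosen with earlier results of these data known. Every member probe is described. Of the listed genes the text names those that pass in a trauma contrast, or else the 4 of smallest p a direction. Likeness names the 3 closest genes for each of 5 subunits, of which 1 is not reported here. The fit was tested on simulated data. Alternatives changed the background correction, scaling, dim-probe filter, probes a gene, samples in the fit, variance model, array weights, replicate block, slide row and each sample in turn. Leaving out dim spots and centring by G and C content were added after seeing the data. The ratio of Gria2 to Gria1 was not among the ratios planned. Python 3.11.15 with matplotlib 3.10.9 drew the figures.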

Additional observations from a re-analysis of the deposited data

Results flagged for a closer look

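In 2 of 37 groups of 4 samples, all of them percussion sham values, 1 sample's gap to the nearest other, as a share of the range, was above Dixon's 95% critical value; chance gives about 1 in 20. For Gria1 A_43_P15761 the share was 0.931: sample 3 read 0.72 and the others 0.84 to 0.85. For Grin3a A_64_P154352 it was 0.897: sample 4 read −3.07 and the others −0.39 to −0.08, and the reading came from 1 dim spot of 2.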

How the results depend on the processing

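In the trauma comparisons of each model and their mean, 0 of 15 subunit probes were called by limma under every alternative run. For the difference between the models' effects, 1 was called with no filter on dim probes: Grin2b, at −0.52 (adjusted p = 0.0467). Between the shams 5 were called, 3 without rotational sham sample 2, 3 to 5 over the fits that left out 1 sample, and 3 to 7 over all alternatives. Over all alternatives, single subunit differences gained a call 7 times and lost one 12 times, and no called one changed sign. Uncalled differences near 0 did: 6 probes in the rotational model and 1 in the percussion model changed sign under at least 1 alternative, as did Grin2a and Grin1 A_64_P085896 among the NMDA differences between models. The Grin2d difference between models, −0.58, was −0.32 when arrays were centred within classes of G and C content. Counts over all probes moved more. With no filter 2125 passed in the rotational and 3598 in the percussion model, where 2 and 0 did before; with array weights, whose estimation did not converge, 814 passed in the rotational model. Between the shams 4439 passed (2135 higher, 2304 lower), 10006 with array weights, and 2460, 2665 and 2099 without rotational sham sample 1, 2 and 3. That split was 1577 higher and 2915 lower with median scaling, 1880 and 2826 in the authors' deposited values, and 6305 and 2417 with no filter, which shifted the median of all sham differences by 0.119. With the replicate number as a block, 0 subunits were called in the trauma comparisons, and 32 of all probes passed in the mean. Same-numbered samples correlated at −0.034 to 0.272 in their deviations, so the numbers were not taken as pairs. The block was not run between the shams, nor the fit on only the compared groups for the mean and the difference. The number of arrays, with SEs of 0.07 to 0.60 for the trauma differences, limits what could be seen.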
